A study of Mus musculus with 16 samples.

Results

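Rhd, Epb42, Slc4a1, Alas2, Car2 and Klf1, genes known from red cell precursors, were followed through sorted cells of the mouse thymus. They are the 6 genes, of 8251 named genes on the array, that an erythroid gene list gave and that the platform's probe table pairs with a probe set. They had 7 of the 12422 probe sets that are not controls, and 6 of these were among the 9319 bright enough to test. The 6 genes were chosen with earlier results of these data known. Counts of those that passed are thus a description and no independent evidence. The data are 16 oligonucleotide arrays, 2 for each of 8 groups. Epithelial cells of the thymic medulla (mTEC) were sorted by flow cytometry into a fraction with high surface CD80 (CD80hi) and a fraction with low CD80 (CD80lo), from Aire-knockout and from wild-type mice. The remaining 4 groups came from wild-type mice and were mTEC not split by CD80 (unfractionated), epithelial cells of the cortex (cTEC), and the dendritic cells (tDC) and macrophages (tMPh) of the thymus. CD80 is a costimulatory protein that increases as mTEC mature, and Aire is a nuclear protein on which many tissue-restricted transcripts of mTEC depend. Strain, age, sex, the knockout allele and any pooling of animals are not stated in the labels. Nor do the labels say whether a group's 2 samples stem from different animals, so p-values measure only the spread between these samples, which may be technical.

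Red cell precursors fill themselves with haemoglobin, which needs globin chains and haem, and build a membrane held in shape by a protein skeleton. Rhd encodes the Rh blood group protein, Epb42 a protein related to the transglutaminases that links the membrane to the skeleton, and Slc4a1 the anion exchanger that moves bicarbonate across that membrane. Alas2 is the erythroid form of the enzyme that starts haem synthesis, Car2 is a carbonic anhydrase that interconverts carbon dioxide and bicarbonate, and Klf1 is a transcription factor that binds CACCC motifs and drives erythroid genes. The thymic medulla is known for expressing genes of other tissues at low levels, with each such gene found in a small share of the cells, which exposes developing T cells to proteins of those tissues.

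The values were linear intensities, here called signals, and every array had been scaled to the same level (2%-trimmed means of 100.06 to 100.07). A signal compares 1 probe set between arrays and says nothing about the level of 1 gene against another. A probe set was tested when its signal was above 17.3 on at least 2 arrays. Signals passed this limit on 4 of 16 arrays for Rhd (103340_at), 6 for Epb42 (102908_at), 7 for Alas2 (92768_s_at), 10 for Slc4a1 (101077_at), 13 for Car2 (92642_at) and 14 for Klf1 (100452_at). For Rhd and Epb42 all arrays above the limit were of CD80hi or unfractionated mTEC. These genes were thus tested only through groups where they are high, and the filter favoured differences in that direction. A further Epb42 probe set (161151_at) was not tested. Its signals ran from 1.1 to 10.1 over all arrays, and it did not show the pattern of the tested one. The suffix of the Alas2 probe set marks probes that are shared with similar sequences. Each log2 fold change is a difference of mean log2(signal + 4.8), given with its standard error after ±, from 1 limma model over all 16 arrays, and adjusted p-values are Benjamini-Hochberg values over all 9319 probe sets with a threshold of 0.05. The constant makes fold changes of dim genes smaller than the ratio of their signals. The verbs rose and fell are used of differences that passed this threshold.

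The labels of the sorts were checked against marker genes. Summed signals of 10 mTEC marker genes, Aire and Cd80 among them, were 4377 to 5922 in unfractionated mTEC and 125.3 to 390.7 in cTEC, tDC and tMPh. Replicates correlated across probe sets with a Pearson r of 0.896 to 0.966. Aire itself gave 1589 and 1385 in knockout CD80hi mTEC, against 1829 and 1705 in wild-type CD80hi mTEC (log2 fold change -0.25, adjusted p = 0.977). Where its probes lie relative to the deleted part is not given in the labels or files, so this signal checks nothing about the genotype, and knockout means labelled as knockout. Knockout and wild-type samples also differed in a Y-linked gene. Eif2s3y gave 54.3 and 233.3 in knockout CD80hi mTEC and 4.2 and 2.0 in wild-type CD80hi mTEC, and the part of this difference in any result was not tested.

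Stretches of 250 bases upstream of the annotated start were available for 4 of the 6 genes, from RefSeq on build GRCm38.p6, and are shown because GATA and CACCC motifs are the textbook elements of erythroid promoters. Capitals mark matches to the GATA motif (AGATAA or AGATAG or TGATAA or TGATAG) and to a CACCC motif (CCNCNCCC), each searched on both strands, so that TTATCT, for example, is AGATAA on the opposite strand. Rhd lies at chr4:134864286-134864535 (+ strand), Epb42 at chr2:121036878-121037127 (- strand), Alas2 at chrX:150547167-150547416 (+ strand) and Klf1 at chr8:84901732-84901981 (+ strand), and each is written 5′ to 3′ on its gene's strand.
Rhd: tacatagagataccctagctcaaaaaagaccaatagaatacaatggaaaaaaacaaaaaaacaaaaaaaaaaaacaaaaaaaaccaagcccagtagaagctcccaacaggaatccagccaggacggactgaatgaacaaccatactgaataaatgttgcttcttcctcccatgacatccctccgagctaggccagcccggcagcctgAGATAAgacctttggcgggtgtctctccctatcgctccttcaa
Epb42: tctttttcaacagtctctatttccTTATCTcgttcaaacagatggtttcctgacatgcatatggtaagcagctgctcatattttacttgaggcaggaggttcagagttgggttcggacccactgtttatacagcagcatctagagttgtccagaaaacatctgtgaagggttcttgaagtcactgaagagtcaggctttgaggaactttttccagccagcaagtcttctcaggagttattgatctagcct
Alas2: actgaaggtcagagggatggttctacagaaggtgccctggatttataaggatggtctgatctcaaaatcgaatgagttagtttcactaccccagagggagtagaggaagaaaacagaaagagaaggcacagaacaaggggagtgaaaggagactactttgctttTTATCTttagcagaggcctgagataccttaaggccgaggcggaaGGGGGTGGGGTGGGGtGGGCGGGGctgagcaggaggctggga
Klf1: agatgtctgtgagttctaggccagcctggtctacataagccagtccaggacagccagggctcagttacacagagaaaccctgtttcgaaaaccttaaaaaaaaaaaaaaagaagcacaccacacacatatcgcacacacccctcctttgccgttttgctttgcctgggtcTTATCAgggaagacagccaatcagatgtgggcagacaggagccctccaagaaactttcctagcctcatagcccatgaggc
Each of the 4 windows held 1 GATA match, which began 43 bases before the start in Rhd, 226 in Epb42, 86 in Alas2 and 80 in Klf1. Of 32851 promoter windows of the same length, 26.5% held a GATA match. The searched form CCNCNCCC matched in Alas2 alone, with 4 partly overlapping matches between 42 and 19 bases before the start. It was held by 45.9% of all windows. The bare letters CACCC were not searched. On 1 strand or the other they also occur in the Rhd and Klf1 windows, and the last Alas2 match, GGGCGGGG, does not hold them. The matches are a description of letters and not of bound sites.

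The signals by array differed in pattern between the genes. Rhd, Epb42 and Alas2 were near the dim end of the array outside the CD80hi and unfractionated mTEC groups, whereas Car2 and Klf1 were above 17.3 in most groups. Slc4a1 stayed close to that limit, with signals from 2.0 to 31.5 over all arrays. It was above the limit on both arrays only in wild-type CD80hi, wild-type CD80lo and unfractionated mTEC.

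**Figure D1:**
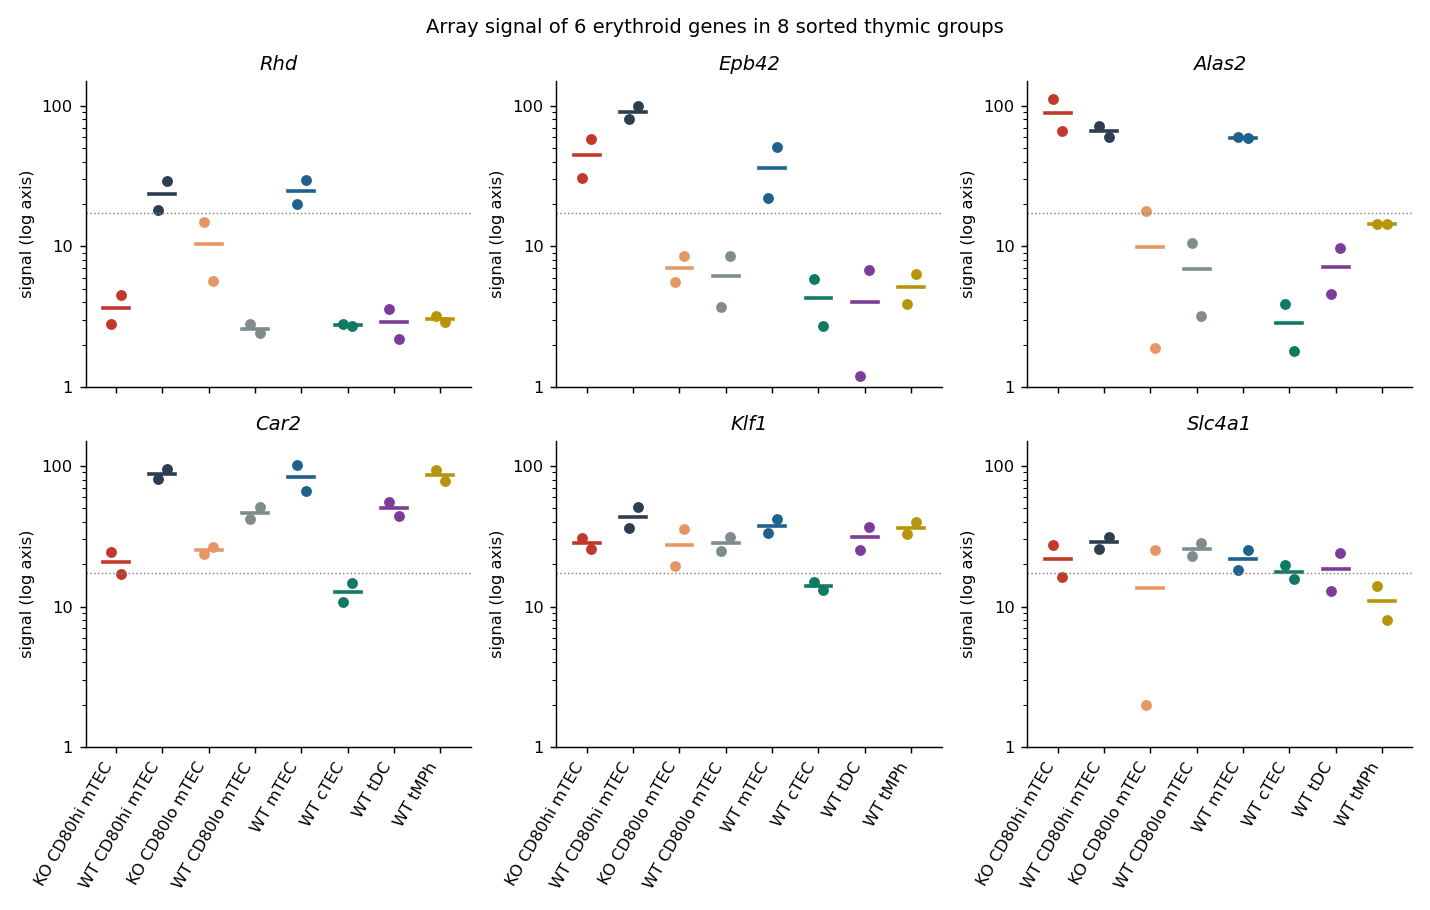
Signal of each of the 6 genes on every array (log axis, arbitrary units of the scaled arrays), with 2 arrays per group as points, their mean as a bar and the signal of 17.3 used for the filter as a dotted line. Epb42 and Alas2 lie above that line on both arrays of the knockout CD80hi, wild-type CD80hi and unfractionated mTEC groups, Rhd on those of the wild-type CD80hi and unfractionated mTEC groups.

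Mature mTEC were set against less mature mTEC to ask how erythroid genes change with CD80 stage. In wild-type mice 3 of the 6 genes were higher in CD80hi cells, namely Epb42, Alas2 and Rhd, and none was lower, while 7.98% of all tested probe sets were higher and 4.74% lower. Epb42 had signals of 81.0 and 98.9 in CD80hi and 3.7 and 8.6 in CD80lo cells. Both CD80hi arrays were thus far above both CD80lo arrays, and the log2 fold change was 3.14 ± 0.47 (adjusted p = 0.000472). Rhd, the blood group gene, gave 18.1 and 29.0 in CD80hi and 2.8 and 2.4 in CD80lo cells. Its groups did not overlap, and CD80lo cells were at the dim end of the array (1.91 ± 0.40, adjusted p = 0.00516). Slc4a1, the anion exchanger, gave 25.8 and 31.5 in CD80hi and 22.8 and 28.3 in CD80lo cells, so that its groups overlapped (0.14 ± 0.55, adjusted p = 0.937).

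Alas2 of haem synthesis gave 71.7 and 60 in wild-type CD80hi and 10.5 and 3.2 in CD80lo cells. Its groups lay well apart, with a log2 fold change of 2.67 ± 0.51 (adjusted p = 0.00292). Car2 gave 80.4 and 95.9 in CD80hi against 41.9 and 51.3 in CD80lo cells. The Car2 arrays did not overlap, but the difference of 0.86 ± 0.32 did not pass the threshold (adjusted p = 0.11). Klf1 gave 36.3 and 51.1 in CD80hi and 25.0 and 31.4 in CD80lo cells, which also did not overlap and did not pass (0.55 ± 0.35, adjusted p = 0.408). In bulk samples, fewer cells of a type and less RNA per cell cannot be told apart. With only the wild-type CD80hi and CD80lo arrays in the fit, 4 of these genes passed in place of 3, all higher in CD80hi cells. The Rhd difference missed the threshold without wild-type CD80hi array 2 (adjusted p = 0.0707), and that of Alas2 without wild-type CD80lo array 2 (adjusted p = 0.0511).

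In knockout mice 2 of the 6 genes were higher in CD80hi cells and none was lower, beside 5.93% of all tested probe sets that were higher and 6.87% that were lower. Alas2 gave 111.0 and 66.7 in knockout CD80hi and 17.9 and 1.9 in knockout CD80lo cells. The 2 CD80hi arrays were far above both CD80lo arrays, which differed among themselves, and Alas2 rose by 2.88 ± 0.51 (adjusted p = 0.00179). Epb42 gave 30.7 and 58.4 in knockout CD80hi and 5.6 and 8.5 in knockout CD80lo cells, again without overlap (2.01 ± 0.47, adjusted p = 0.0111). Rhd gave 2.8 and 4.5 in knockout CD80hi and 15.0 and 5.7 in knockout CD80lo cells. The CD80lo arrays were here the higher ones, and the difference of -0.78 ± 0.40 did not pass (adjusted p = 0.256).

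The other genes gave no difference with stage in knockout mice that passed. Car2 was at 24.5 and 17.0 in CD80hi and 23.8 and 26.4 in CD80lo cells (-0.24 ± 0.32, adjusted p = 0.744). Klf1 was at 30.7 and 25.8 in CD80hi and 19.3 and 35.9 in CD80lo cells (0.07 ± 0.35, adjusted p = 0.938). Both genes' arrays overlapped between the stages. Slc4a1 gave 27.6 and 16.2 in CD80hi cells and 2.0 and 25.1 in CD80lo cells, where array 1 stood apart from every other Slc4a1 value of the series (0.87 ± 0.55, adjusted p = 0.378). Without knockout CD80lo array 2 the Slc4a1 difference was 1.94 and passed (adjusted p = 0.0192), resting on that single low value. The Epb42 difference missed the threshold without knockout CD80hi array 2 (adjusted p = 0.116) or knockout CD80lo array 1 (adjusted p = 0.0789).

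Markers of cells other than mTEC also moved with CD80 stage. Of 9 fibroblast markers 4 were lower in wild-type CD80hi cells, with summed signals of 792.8 and 704.9 in CD80hi and 2846 and 2553 in CD80lo cells. Of 8 endothelial markers 3 were lower, with sums of 225.3 and 229.6 in CD80hi and 1010 and 570.5 in CD80lo cells. In knockout mice 3 of the 9 fibroblast markers were lower, with sums of 1015 and 1087 in CD80hi and 3903 and 3324 in CD80lo cells, and 2 of the 8 endothelial markers, with sums of 249.1 and 257.2 in CD80hi and 252.7 and 812.3 in CD80lo cells. Of 6 markers of cortical epithelium 2 were lower in wild-type CD80hi cells, Cxcl12 (-3.69 ± 0.59) and Ctsl (-2.44 ± 0.49), with sums of 5001 and 4736 in CD80hi and 6360 and 7624 in CD80lo cells. In knockout mice the same 2 were lower and Ly75 higher, with sums of 5856 and 5566 in CD80hi and 8091 and 7934 in CD80lo cells. Of 10 macrophage markers 2 were higher in wild-type CD80hi cells, with sums of 2164 and 2243 in CD80hi and 1556 and 1600.3 in CD80lo cells. Of 8 dendritic cell markers 3 were higher in knockout CD80hi cells, with sums of 3621 and 2130.1 in CD80hi and 937.9 and 722.8 in CD80lo cells. No marker of these 5 lists was at 0 on both arrays of a group, and the part of such cells in the stage differences was not tested.

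**Figure D2:**
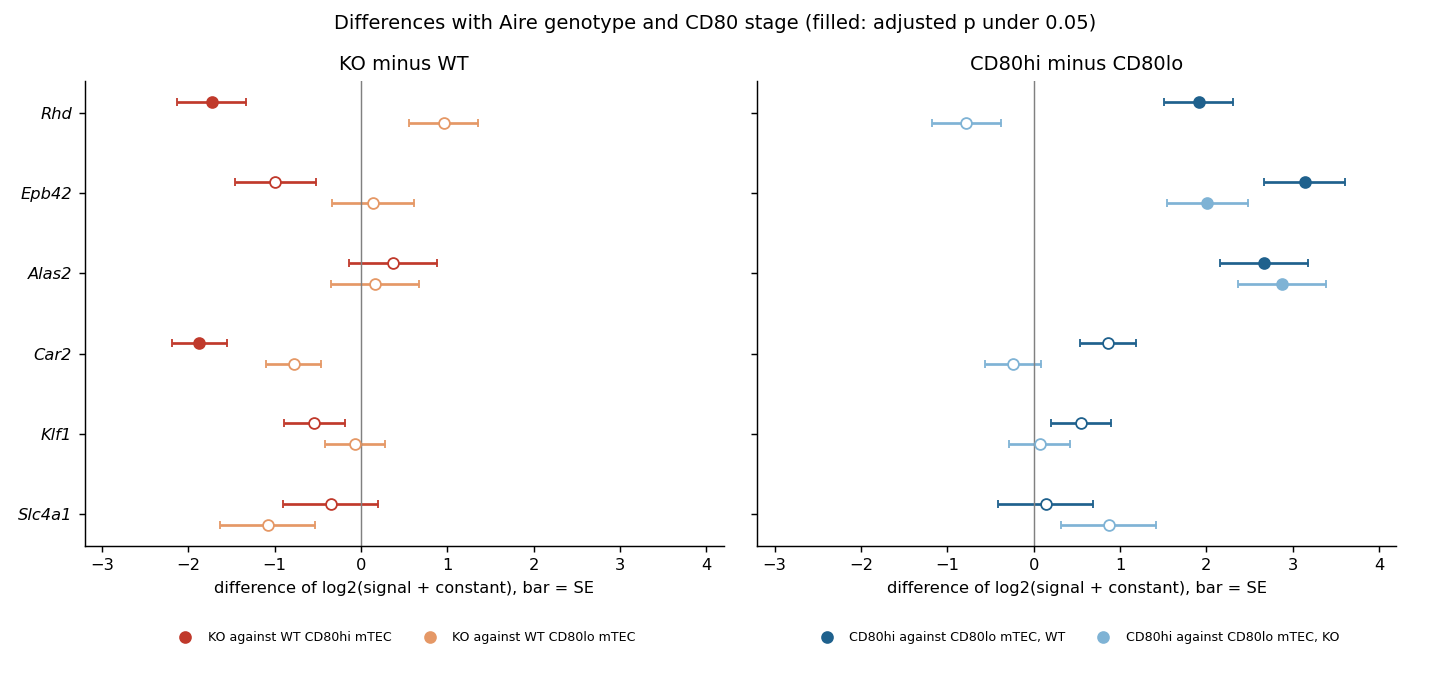
Log2 fold changes of the 6 genes with Aire genotype (left, knockout minus wild type, in CD80hi and CD80lo mTEC) and with CD80 stage (right, CD80hi minus CD80lo, in wild-type and knockout mice), with bars for the standard error and filled points for an adjusted p under 0.05. Rhd and Car2 are the filled points below 0 on the left at -1.73 and -1.87, and Alas2 keeps a filled point near 2.67 and 2.88 in both genotypes on the right.

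Knockout mTEC were set against wild-type mTEC of the same stage to ask which erythroid genes depend on Aire. In CD80hi cells Car2 and Rhd fell, 2 of the 6 genes, and none was higher, while 2.88% of all tested probe sets were lower and 0.172% higher, 3.05% in all. Car2 had signals of 24.5 and 17.0 in knockout CD80hi cells, against 80.4 and 95.9 in wild-type CD80hi cells. The groups lay far apart, and Car2 fell by 1.87 on the log2 scale (standard error 0.32, adjusted p = 0.00481). Rhd gave 2.8 and 4.5 in knockout against 18.1 and 29.0 in wild-type CD80hi cells. It was thus at the dim end of the array in the knockout, where it fell by 1.73 (standard error 0.40, adjusted p = 0.029).

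Epb42 and Alas2, the genes with the largest stage differences of the 6, gave no genotype difference that passed in CD80hi cells. Epb42 gave 30.7 and 58.4 in knockout and 81.0 and 98.9 in wild-type CD80hi cells, lower on both knockout arrays (-0.99 ± 0.47, adjusted p = 0.445). Alas2 gave 111.0 and 66.7 in knockout and 71.7 and 60 in wild-type CD80hi cells, with arrays that overlapped (0.37 ± 0.51, adjusted p = 0.943). Klf1 gave 30.7 and 25.8 in knockout against 36.3 and 51.1 in wild-type cells, without overlap (-0.54 ± 0.35, adjusted p = 0.692). Slc4a1 gave 27.6 and 16.2 in knockout against 25.8 and 31.5 in wild-type cells, with overlap (-0.35 ± 0.55, adjusted p = 0.955). A missed threshold does not show that these levels were alike in both genotypes.

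The Rhd difference missed the threshold when any of the 4 arrays compared was left out, with an adjusted p of 0.182 and 0.072 without knockout array 1 and 2 and of 0.0892 and 0.304 without wild-type array 1 and 2, and also under quantile normalisation (adjusted p = 0.075), with a smaller constant (0.0597) and with only these arrays in the fit (0.0968). That of Car2 missed it without wild-type CD80hi array 2 (adjusted p = 0.0706). Macrophage markers moved in the same comparison. Marco and Cd14, 2 of 10 macrophage markers, were lower in knockout CD80hi cells by log2 fold changes of -1.89 ± 0.41 and -1.66 ± 0.36, and the summed signals were 1259 and 2544 in knockout and 2164 and 2243 in wild-type CD80hi cells. Each of these 2 marker differences missed the threshold when any 1 of the 4 arrays was left out. The markers' part in the Car2 and Rhd differences was not tested.

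In CD80lo cells the genotypes differed in none of the 6 genes by the limma test, beside 0.322% of all tested probe sets in either direction (0.279% higher and 0.0429% lower). Before adjustment, p was under 0.05 for 2 genes. Rhd gave 15.0 and 5.7 in knockout against 2.8 and 2.4 in wild-type CD80lo cells (0.96 ± 0.40, adjusted p = 0.789), higher on both knockout arrays. Car2 gave 23.8 and 26.4 in knockout against 41.9 and 51.3 in wild-type CD80lo cells (-0.78 ± 0.32, adjusted p = 0.795), lower on both knockout arrays.

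Whether the stage difference itself depended on genotype was tested as an interaction, the difference of CD80hi minus CD80lo in knockout less that in wild type. Rhd was the 1 gene of 6 that passed, with a lower stage difference in the knockout, beside 1.3% of all tested probe sets that were lower. Its interaction was -2.69 ± 0.57 (adjusted p = 0.0366), from a stage difference of -0.78 in knockout and 1.91 in wild-type mice. It missed the threshold under 14 of the 23 alternatives, with adjusted p-values of 0.019 to 0.23 over all of them. The interaction was -1.13 ± 0.67 for Epb42 (adjusted p = 0.839), -1.10 ± 0.46 for Car2 (adjusted p = 0.476) and 0.21 ± 0.73 for Alas2 (adjusted p = 1.0), so that different genotype effects at the 2 stages were not shown for these genes.

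Unfractionated wild-type mTEC were then set against the other thymic stromal and antigen-presenting cells of wild-type mice to ask where in the thymus these genes are expressed. Against cTEC, 5 of the 6 genes were higher in mTEC, all but Slc4a1, and none was lower, beside 11.1% of all tested probe sets that were higher and 4.25% that were lower. Against tDC and against tMPh, Rhd, Epb42 and Alas2 were higher, 3 of 6, and none was lower. Of all tested probe sets 16.8% were higher and 7.58% lower than in tDC, 24.3% in all, and 14.6% were higher and 7.37% lower than in tMPh. Rhd gave 20 and 29.8 in mTEC, against 2.8 and 2.7 in cTEC, 3.6 and 2.2 in tDC and 3.2 and 2.9 in tMPh. Both mTEC arrays were above all 6 others, and the log2 fold changes of 1.96, 1.93 and 1.90 (standard error 0.40 each) had adjusted p-values of 0.00351, 0.00237 and 0.00294. These 3 Rhd differences passed under every alternative tried. Rhd had entered the test only through wild-type CD80hi and unfractionated mTEC arrays, so its passing is no independent evidence of this direction.

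Epb42 was at 22.0 and 50.6 in mTEC, with 5.9 and 2.7 in cTEC, 1.2 and 6.8 in tDC and 3.9 and 6.4 in tMPh. The mTEC arrays differed from each other by more than the other groups did but stayed above them (2.10, 2.21 and 1.96, standard error 0.47 each, adjusted p = 0.00653, 0.00302 and 0.0072). All 3 differences missed the threshold without mTEC array 2, with adjusted p-values of 0.101, 0.0529 and 0.105, and that against cTEC also without cTEC array 2 (adjusted p = 0.0667). Alas2 was at 59.5 and 58.9 in mTEC, with 3.9 and 1.8 in cTEC, 4.6 and 9.7 in tDC and 14.5 and 14.4 in tMPh. Macrophages thus stood between mTEC and the other 2 cell types, and mTEC were higher by 3.08 against cTEC, 2.45 against tDC and 1.73 against tMPh (standard error 0.51 each, adjusted p = 0.000816, 0.00265 and 0.025). The Alas2 difference against tMPh missed the threshold with any 1 of its 4 arrays left out (adjusted p of 0.0795 to 0.104), under quantile normalisation (0.0657) and with a smaller constant (0.0825).

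Car2 did not follow the 3 genes above. It gave 101.2 and 65.9 in mTEC, 10.8 and 14.6 in cTEC, 55.9 and 44.2 in tDC and 93.6 and 78.5 in tMPh. The cTEC arrays were low and the macrophage arrays lay within the range of mTEC, so that Car2 rose by 2.32 ± 0.32 against cTEC (adjusted p = 0.000193) and differed from tDC by 0.67 ± 0.32 (adjusted p = 0.167) and from tMPh by -0.06 ± 0.32 (adjusted p = 0.93). Klf1 gave 33.1 and 42.2 in mTEC, 14.9 and 13.1 in cTEC, 25.2 and 36.8 in tDC and 32.7 and 40 in tMPh. Only cTEC were apart from mTEC (1.17 ± 0.35, adjusted p = 0.0362), and that difference missed the threshold under 9 alternatives, among them quantile normalisation (adjusted p = 0.0827) and the fits without cTEC array 1 or 2 (0.108 and 0.16) or mTEC array 1 or 2 (0.0868 and 0.218). Slc4a1 gave 18.1 and 25.2 in mTEC, 19.8 and 15.6 in cTEC, 13 and 24.2 in tDC and 14.0 and 8.0 in tMPh, with no difference that passed (0.23, 0.21 and 0.76, standard error 0.55 each, adjusted p = 0.876, 0.85 and 0.406). These 3 comparisons share the mTEC arrays.

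Markers of other cells moved with them. Of the thymocyte markers 10 of 11 were lower in mTEC than in cTEC and in tMPh and 3 of 11 were lower than in tDC. Their summed signals were 386.2 and 382.7 in mTEC, with 3665 and 6781 in cTEC, 2564 and 2677 in tDC and 6166 and 2703 in tMPh, and no marker was at 0 on both arrays of a group. Fibroblast markers were higher in mTEC for 3 of 9 against cTEC and 4 of 9 against tDC, and against tMPh 2 were higher and 1 lower, with sums of 1179 and 1138 in mTEC, 922.3 and 608.0 in cTEC, 248.5 and 277.5 in tDC and 437.3 and 319.5 in tMPh. Endothelial markers were higher in mTEC for 2 of 8 against cTEC, 1 of 8 against tDC and 2 of 8 against tMPh, with sums of 350.9 and 311.9 in mTEC, 94.1 and 167.5 in cTEC, 385.8 and 309.3 in tDC and 228.5 and 207.9 in tMPh. Of the other cells' markers, 2 of 8 dendritic cell and 1 of 10 macrophage markers were higher in mTEC than in cTEC, with dendritic sums of 968.6 and 1310 in mTEC and 649.4 and 854.3 in cTEC and macrophage sums of 1829 and 2292 in mTEC and 2101 and 2638 in cTEC. The part of any of these cells in the differences from mTEC was not tested.

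Ranked by mean log2 level over the 8 groups, Epb42, Car2, Klf1 and Slc4a1 were highest in wild-type CD80hi mTEC, Rhd in unfractionated mTEC and Alas2 in knockout CD80hi mTEC. For Rhd, unfractionated and wild-type CD80hi mTEC overlapped, knockout CD80lo mTEC came next without overlap on either side, and the lowest 5 groups overlapped with their neighbours. For Epb42, wild-type CD80hi mTEC stood above knockout CD80hi mTEC, which overlapped with unfractionated mTEC, and the other 5 groups overlapped with their neighbours below these. For Alas2, both CD80hi groups overlapped, unfractionated mTEC came next just below the wild-type CD80hi arrays, and the remaining 5 groups overlapped with their neighbours. Car2 fell into 4 steps, with wild-type CD80hi mTEC, tMPh and unfractionated mTEC at the top, tDC and wild-type CD80lo mTEC below, then both knockout groups, and cTEC lowest. For Klf1 cTEC alone did not overlap with the group above it. Slc4a1 overlapped between neighbours except at tMPh, which lay below cTEC and, with its low array, knockout CD80lo mTEC came last.

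The members' likeness to each other and to other genes was described by Pearson's r of log2 levels over the 16 arrays. These arrays include replicates and shared cell types, so r carries no test. Among the 15 pairs of the 6 genes, r was highest for Epb42 with Alas2 (0.84) and Car2 with Klf1 (0.77), and lowest for Rhd with Slc4a1 (0.06). Rhd with Epb42 was at 0.68 and Rhd with Car2 at 0.46. The tested genes most like Rhd were Cyp3a11, a drug-metabolising cytochrome of the liver (0.943), Crabp1, a retinoic acid binding protein (0.941), and Fam3b, a secreted protein of the pancreas (0.936). Epb42 was most like Tfap2b, a transcription factor (0.948), Calb1, a calcium-binding protein of neurons and kidney (0.945), and Reep1 (0.944). Alas2 was most like Pnpla2, a triglyceride lipase (0.936), Cyp26a1, which breaks down retinoic acid (0.936), and Timd2 (0.932). The highest values were smaller for Car2, with the mast cell protease gene Cma1 at 0.855 and Gdpd5 at 0.877, for Slc4a1 (0.828 with Casq2, a calcium store protein of muscle) and for Klf1 (0.809 with Herc1).

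Globin genes gave a further view of erythroid transcripts in these cells, and as the most abundant messages of red cell precursors they also serve as markers of such cells. Of 10 listed globin and chaperone genes 5 had a probe set, and all 5 were tested. In wild-type mice 1 of them, the embryonic beta-like globin Hbb-y, was higher in CD80hi than in CD80lo cells and 4 did not pass, with a median log2 fold change of 1.29 beside -0.04 over all tested probe sets. In CD80hi cells 1, again Hbb-y, was lower in knockout than in wild-type mice and 4 did not pass, with a median of -1.32 beside -0.05.

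Hbb-y (97180_f_at) gave 11.9 and 7.2 in knockout CD80hi, 170.8 and 138.9 in wild-type CD80hi, 9.2 and 7.1 in knockout CD80lo and 25.5 and 9.4 in wild-type CD80lo mTEC. It was bright in wild-type CD80hi cells and dim in the other 3, and fell by 3.49 in knockout CD80hi cells (standard error 0.52, adjusted p = 0.00196). Between the stages of wild-type mice it differed by 2.94 ± 0.52 (adjusted p = 0.00163), and its interaction of -2.80 did not pass (adjusted p = 0.0937). Unfractionated mTEC gave 128.5 and 155.9, against 7.3 and 21.8 in cTEC, 11.2 and 4.6 in tDC and 17.3 and 3.9 in tMPh. These differences of 3.03, 3.58 and 3.40 (standard error 0.52 each) passed under every alternative tried. The suffix of this probe set marks probes shared within a sequence family, and the second Hbb-y probe set (103535_at) was too dim to test, at 1.1 to 12.0 over all arrays. It gave 2.8 and 1.2 in knockout CD80hi and 6.6 and 12.0 in wild-type CD80hi mTEC, with 4.8 and 1.1 in wild-type CD80lo mTEC, so that its wild-type CD80hi arrays were also above those of the other 2 groups. Its unfractionated mTEC arrays, at 10.6 and 6.6, overlapped with cTEC (8.0 and 6.2), tDC (8.1 and 6.6) and tMPh (8.0 and 3.9). The second probe set thus did not show the differences from these cells, and all its signals were below the filter.

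The adult alpha globin Hba-a1 gave 17.7 and 34.7 in knockout CD80hi and 72.9 and 51.2 in wild-type CD80hi mTEC (-1.15 ± 0.67, adjusted p = 0.61), and its highest value was 104.2 on array 1 of tMPh, with 24.0 on array 2. The embryonic alpha-like globin Hba-x gave 9.3 and 19.5 in knockout CD80hi and 38.1 and 49.0 in wild-type CD80hi mTEC (-1.38 ± 0.43, adjusted p = 0.129). Hbb-b2, an adult beta globin, gave 0.9 and 5.4 in knockout CD80hi and 14.3 and 14.2 in wild-type CD80hi mTEC (-1.32 ± 0.58, adjusted p = 0.386). Knockout arrays were below wild-type arrays for these 3 genes, without a difference that passed. Hbb-bh1, a further embryonic beta-like globin, overlapped at 37.3 and 34.4 in knockout and 36.0 and 36.9 in wild-type CD80hi mTEC. Hbb-b2 was also higher in unfractionated mTEC, with 21.2 and 27.9, than in cTEC with 1.6 and 5.9 (1.82 ± 0.58, adjusted p = 0.0492, lost under 17 alternatives) and tDC with 0.4 and 5.1 (2.02 ± 0.58, adjusted p = 0.0195, lost without mTEC array 1 or 2 or tDC array 1, with 0.0592, 0.114 and 0.165). Hbb-bh1 was lower in mTEC, with 19.0 and 16.1, than in tMPh with 42.3 and 55.6 (-1.26 ± 0.41, adjusted p = 0.0387, lost under 9 alternatives). No globin was at 0 on both arrays of a group, and the part of red cell precursors in the results for the 6 genes was not tested.

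**Figure D3:**
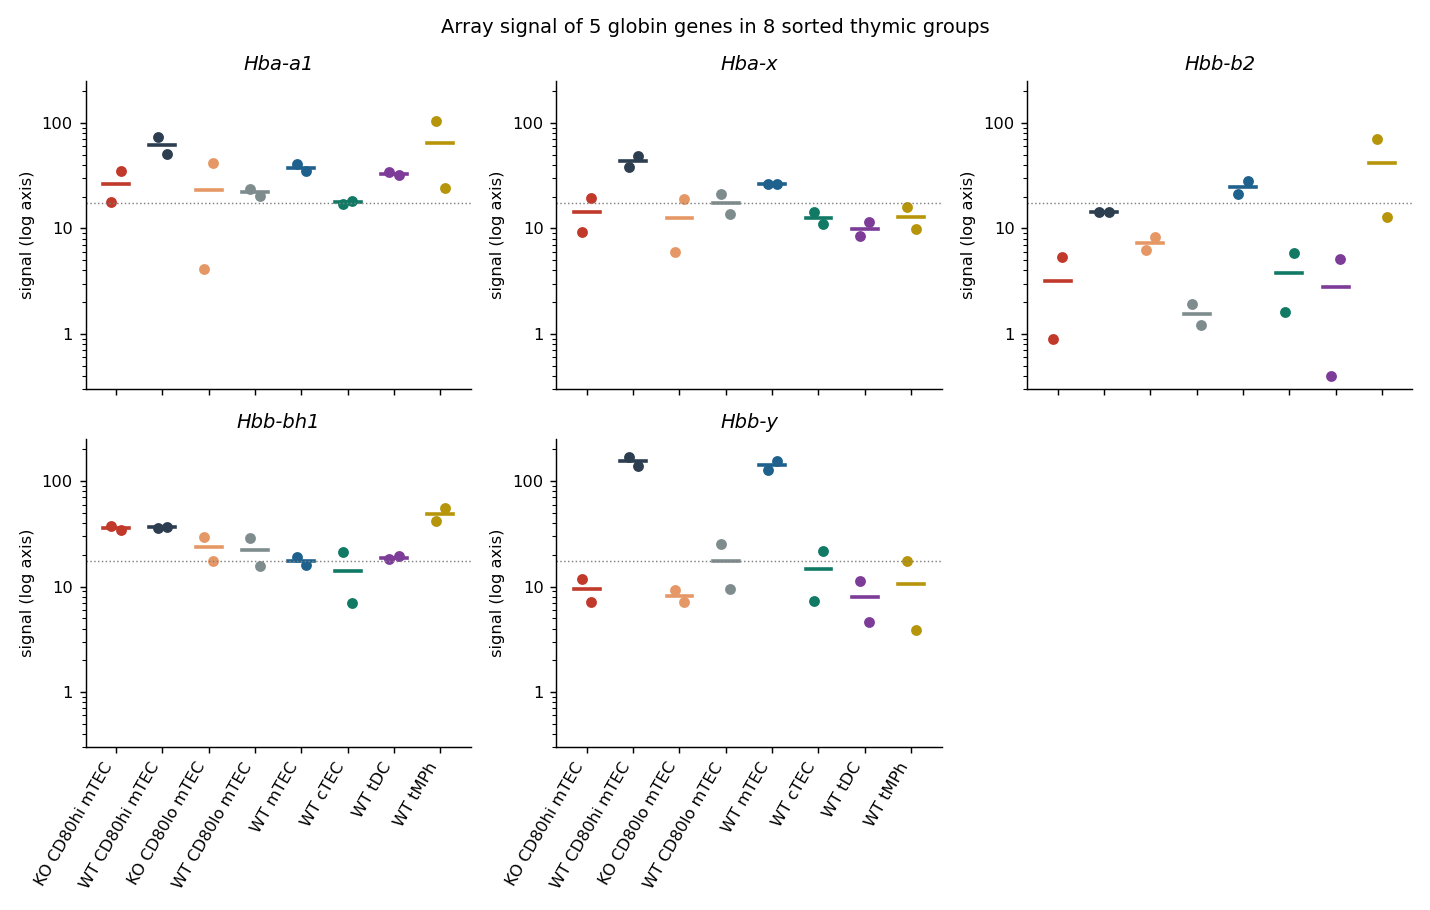
Signal of the 5 globin genes with a tested probe set on every array (log axis), drawn as for the 6 genes, with the filter signal of 17.3 dotted. Hbb-y is at 128.5 to 170.8 in wild-type CD80hi and unfractionated mTEC and at 3.9 to 25.5 elsewhere, while Hba-a1 and Hbb-b2 reach their highest values, 104.2 and 70.2, on array 1 of the macrophages.

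Lists for globins, haem synthesis, the red cell membrane and skeleton, erythroid transcription factors, erythropoietin and iron handling, and red cell enzymes held 82 further genes, of which 54 had a probe set and 51 were tested. In wild-type mTEC, 4 of the 51 were higher and 1 lower in CD80hi than in CD80lo cells (7.84% and 1.96%, beside 7.98% and 4.74% of all tested probe sets), with a median of 0.07 beside -0.04. In CD80hi cells 1 of 51 was lower in knockout mice, the globin Hbb-y, and none was higher (median -0.20 beside -0.05). This was 1.96% lower, beside 2.88% lower and 0.172% higher of all tested probe sets. In CD80lo cells neither direction held any of the 51, beside 0.279% higher and 0.0429% lower of all tested probe sets. In mTEC against cTEC, 4 were higher and 1 lower (7.84% and 1.96%, beside 11.1% and 4.25% of all tested probe sets). Against tDC 10 were higher and 6 lower (19.6% and 11.8%, beside 16.8% and 7.58%), and against tMPh 5 were higher and 8 lower (9.8% and 15.7%, beside 14.6% and 7.37%).

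**Figure D4:**
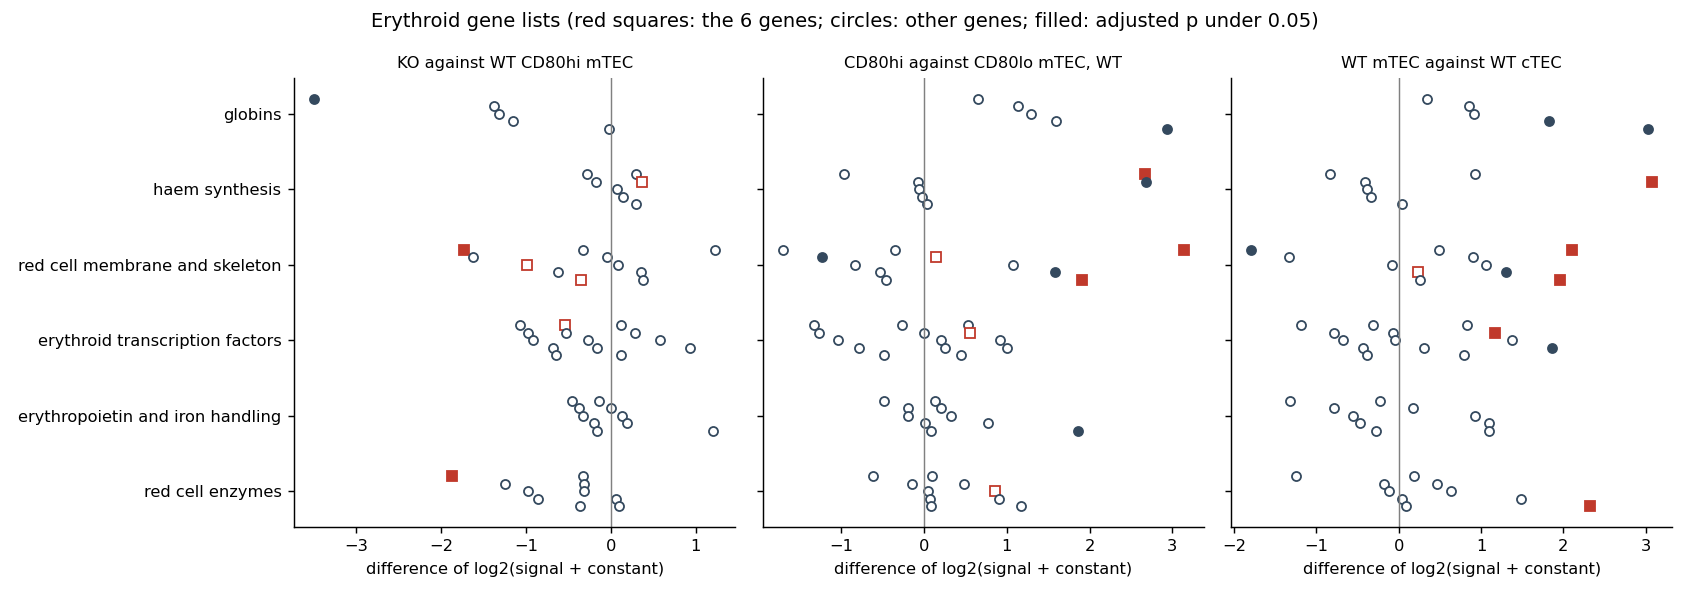
Log2 fold changes of the genes of 6 erythroid lists (rows) in 3 comparisons (knockout against wild-type CD80hi mTEC, CD80hi against CD80lo mTEC of wild-type mice, unfractionated mTEC against cTEC), with the 6 genes as red squares, other genes as circles and filled symbols for an adjusted p under 0.05. Most circles are open and lie on both sides of 0, and Hbb-y is the filled circle at -3.49 on the left.

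In haem synthesis 1 of 6 other tested genes rose with CD80 in wild-type mice and 5 did not pass. It was Alas1, the housekeeping counterpart of Alas2, with signals of 2411 and 1689 in CD80hi and 334.4 and 289.6 in CD80lo cells (2.68 ± 0.33, adjusted p = 0.000106). In knockout mice Alas1 gave 2991 and 2078 in CD80hi and 643.8 and 478.8 in CD80lo cells (2.16 ± 0.33, adjusted p = 0.000581), and both forms of the enzyme thus rose with CD80 stage in both genotypes. Alas1 was also higher in unfractionated mTEC than in tDC (2.68 ± 0.33) and tMPh (1.45 ± 0.33), and Alad, which acts next in the pathway, than in tDC (1.5 ± 0.51). Without mTEC array 2 the Alas1 difference from tMPh missed the threshold (adjusted p = 0.0545), and the Alad difference missed it under 17 alternatives.

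Of 8 other tested membrane and skeleton genes, 1 rose, 1 fell and 6 did not pass with CD80 stage in wild-type mice. Ank1, the ankyrin that ties the anion exchanger to spectrin, gave 180.0 and 137.5 in CD80hi and 51.1 and 47.8 in CD80lo cells (1.58 ± 0.33, adjusted p = 0.00531). This was on a probe set of the shared-sequence kind, and the difference missed the threshold without wild-type CD80hi array 1 or CD80lo array 2. Dimmer Ank1 probe sets gave a smaller step of 70.0 and 55.9 against 47.7 and 43.1 (100439_i_at), and 17.4 and 11.1 against 1.6 and 1.7 (100441_s_at). Mpp1, a palmitoylated scaffold protein of the red cell membrane, fell by 1.23 (standard error 0.33, adjusted p = 0.0234, but 0.0574 to 0.21 with any 1 of the 4 arrays left out), and was also lower in unfractionated mTEC than in cTEC (-1.79 ± 0.33), tDC (-1.14 ± 0.33) and tMPh (-2.80 ± 0.33). The difference from tDC was lost without mTEC array 1 or 2 (adjusted p = 0.0535 and 0.138) or tDC array 1 (0.125). Slc2a1, a glucose transporter, was higher in mTEC than in all 3 (1.30, 1.31 and 2.28, standard error 0.38 each), with the differences from cTEC and tDC lost without mTEC array 1 (adjusted p = 0.182 and 0.128) or array 2 (0.0956 and 0.0639), cTEC array 2 (0.264) or tDC array 2 (0.118). Rhag, the glycoprotein that partners the Rh protein, gave 12.8 and 28.7 in knockout CD80hi and 32.4 and 32.7 in wild-type CD80hi cells, with 11.1 and 14.9 in wild-type CD80lo cells, and passed in neither comparison (adjusted p = 0.666 for genotype and 0.0921 for stage).

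None of 13 other tested transcription factors changed with CD80 stage in wild-type mice or with genotype in CD80hi cells (medians 0.00 and -0.27). Gata1, the regulator of most erythroid genes, had 1 tested probe set with signals of 10.5 and 23.6 in knockout CD80hi, 18.3 and 22.5 in wild-type CD80hi and 15.5 and 10.2 in wild-type CD80lo mTEC, and it passed in no comparison. Gfi1b is a transcriptional repressor that acts in erythroid and megakaryocyte development. It gave 50.5 and 38.8 in mTEC, against 4.8 and 14.2 in cTEC, 2.8 and 26.8 in tDC and 2.0 and 2.4 in tMPh (1.86 ± 0.54, 1.66 ± 0.54 and 2.81 ± 0.54). The first 2 of these missed the threshold without mTEC array 1 (adjusted p = 0.163 and 0.167) or array 2 (0.089 and 0.0909), cTEC array 1 (0.246) or tDC array 1 (0.434). Gata2, a factor of blood progenitors, was higher in mTEC than in tDC (1.54 ± 0.32). Lmo2 and Lyl1, partners of erythroid complexes, were lower in mTEC than in tMPh (-1.65 ± 0.45 and -2.43 ± 0.49), that of Lmo2 not without mTEC array 2 (adjusted p = 0.13) or tMPh array 2 (0.155).

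Of 10 tested genes of erythropoietin and iron handling, 1 rose with CD80 stage in wild-type mice, beside 7.98% of all tested probe sets. It was Hamp, which among the CD80-sorted groups was above 17.3 only in CD80hi cells, so the filter could favour this direction. Hamp, the liver hormone hepcidin that limits iron uptake, gave 52.4 and 42.1 in knockout CD80hi and 1.6 and 2.0 in knockout CD80lo cells (2.97 ± 0.43, adjusted p = 0.000392), and 19.0 and 16.6 in wild-type CD80hi and 0.6 and 2.4 in wild-type CD80lo cells (1.86 ± 0.43, adjusted p = 0.0101). The wild-type difference missed the threshold without CD80hi array 1 or 2 (adjusted p = 0.0785 and 0.0539) or CD80lo array 1 (0.0938). Epor, the erythropoietin receptor, Slc11a2, an iron transporter, and Hfe, an iron-sensing protein, were lower in mTEC than in tMPh by log2 fold changes of -2.87 ± 0.52, -1.82 ± 0.43 and -4.00 ± 0.39, with that of Slc11a2 lost without mTEC array 2 (adjusted p = 0.0558) or tMPh array 2 (0.088). None of 9 other red cell enzymes changed with stage in wild-type mice or with genotype in CD80hi cells. Bpgm, which makes the ligand that lowers the oxygen affinity of haemoglobin, was higher in mTEC than in tDC (1.67 ± 0.37), and Sod1, a superoxide dismutase, lower (-1.24 ± 0.31). These were lost without mTEC array 1 for Bpgm (adjusted p = 0.0669) and without mTEC array 2 or tDC array 1 for Sod1 (0.114 and 0.0571).

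Relatives of Car2 were measured too. Of 7 other tested carbonic anhydrases, 3 rose with CD80 stage in wild-type mice and 4 did not pass, beside 7.98% of all tested probe sets that were higher. Their median was 1.17 beside -0.04 over all tested probe sets. Car12 gave 130.7 and 109.8 in CD80hi and 25.2 and 25.2 in CD80lo cells (2.05 ± 0.40, adjusted p = 0.00341), and Car6 of saliva gave 36.1 and 20.6 in CD80hi and 1.8 and 3.2 in CD80lo cells (2.15 ± 0.49, adjusted p = 0.00895). With genotype in CD80hi cells Car6 fell by 2.0 (standard error 0.49, adjusted p = 0.0399), with 2.4 and 4.2 in knockout cells. The other 6 did not pass, and 2.88% of all tested probe sets were lower. The median of all 7, Car6 included, was -0.98 beside -0.05 over all tested probe sets. The Car6 genotype difference missed the threshold under 12 alternatives, with an adjusted p up to 0.386. That of stage missed it for Car6 without wild-type CD80hi array 1 (adjusted p = 0.11) or CD80lo array 1 (0.0737). Against cTEC, Car6, Car8 and Car12 were higher in mTEC, 3 of 7, by log2 fold changes of 1.81, 2.81 and 1.49, beside 11.1% of all tested probe sets. Without cTEC array 1, Car6 and Car12 missed the threshold there (adjusted p = 0.248 and 0.169), as Car6 did without mTEC array 1 (0.187) and Car12 without mTEC array 2 (0.18).

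The nearest genes with a probe set within 200 kb were measured to see whether the members' neighbours changed with them. Of 12 sides of the 6 genes 9 had such a gene, and all 9 were tested. Rsrp1, next to Rhd, was bright in every group (952.4 and 1247 in knockout CD80hi and 1096 and 1319 in wild-type CD80hi mTEC) and passed in no comparison. Car3, a muscle carbonic anhydrase next to Car2, gave 7.2 and 1.7 in knockout CD80hi cells. In wild-type mice it gave 27.8 and 33.2 in CD80hi and 2.6 and 1.9 in CD80lo cells. Car3 was above 17.3 only on arrays of wild-type CD80hi and unfractionated mTEC. It was thus tested only through groups where it is high, and the filter favoured that direction. It rose with CD80 stage in wild-type mice (2.32 ± 0.52, adjusted p = 0.0084, but 0.0702 without CD80hi array 2 and 0.0647 without CD80lo array 2), without passing for genotype (-1.99 ± 0.52, adjusted p = 0.0574). Among the neighbours of Epb42, Ccndbp1 rose with CD80 stage in knockout mice (1.13 ± 0.33, adjusted p = 0.0342, but up to 0.453 under the alternatives) and Tubgcp4 passed in no comparison. Tro, beside Alas2, gave 30.3 and 11.9 in knockout and 61.3 and 58.4 in wild-type CD80hi cells, a difference of -1.42 ± 0.51 that did not pass (adjusted p = 0.224). Gcdh and Rnaseh2a beside Klf1 and Ubtf beside Slc4a1 passed in no comparison, and Rundc3a beside Slc4a1 was higher in mTEC than in cTEC (1.95 ± 0.41, adjusted p = 0.00415), though not without array 1 of cTEC (0.0577) or of mTEC (0.0615).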

How the data were processed

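Total RNA of FACS-sorted thymic cells was measured in 16 samples on mouse oligonucleotide arrays, and groups and sample numbers came from titles and descriptions. The deposited values are linear intensities, 1 per probe set and array. The authors' scaling software is not given in the sources used here. Of 12488 probe sets, 66 controls and 3103 others not above 17.3 (the 40th percentile) on at least 2 arrays were left out. The platform annotation gave 1 symbol to 10833 probe sets, several to 396 and none to 1193, and 10817 symbols were updated through the RefSeq table of GRCm38.p6, which also gave neighbours within 200 kb.

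A constant of 4.8 (the 20th percentile) was added and log2 taken. Comparisons were contrasts in 1 limma model (3.58.1, R 4.3.3), fitted by lmFit and moderated by eBayes with an intensity trend (degrees of freedom 8 residual, 5.97 prior), and tests were 2-sided. The fit was tested on simulated data. The number of arrays limits the precision. The members and lists were chosen with earlier results of these data known.

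Named genes were the members, up to 3 genes per list and comparison with the smallest p past the threshold, every globin, the nearest neighbours, the 3 genes most like each member, Aire and Gata1. Rhag and the members of lists given with a value that did not pass were chosen after their values were seen. Where a gene had several probe sets, the one with the highest mean was used. Alternatives were quantile normalisation, constants of 1 and 17.3, no filter, a fit to just the arrays in question, the sample number as a block, each array left out and, chosen after seeing the data, leaving out array 1 of both knockout groups.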

Additional observations from a re-analysis of the deposited data

Results flagged for a closer look

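The interaction of genotype and CD80 stage in the limma fit passed the threshold for 2 of the named genes and for 1.3% of all tested probe sets. That count cannot be set against this share, because list genes were named for having passed in a comparison. Klf5 is a named gene because it passed in comparisons, this one among them. Rhd had an interaction of -2.69 ± 0.57 (adjusted p = 0.0366), which missed the threshold under most alternatives, as given above. Its signals were 2.8 and 4.5 in knockout CD80hi, 18.1 and 29.0 in wild-type CD80hi, 15.0 and 5.7 in knockout CD80lo and 2.8 and 2.4 in wild-type CD80lo mTEC, so that knockout arrays were the lower ones in CD80hi and the higher ones in CD80lo cells. Klf5, a Krüppel-like factor of epithelia and a relative of Klf1, had an interaction of -2.78 ± 0.53 (adjusted p = 0.0185). It gave 27.5 and 19.0 in knockout CD80hi, 70.1 and 53.7 in wild-type CD80hi, 241.4 and 140.9 in knockout CD80lo and 75.7 and 49.3 in wild-type CD80lo mTEC, with knockout arrays again the lower ones in CD80hi and the higher ones in CD80lo cells. The Klf5 interaction missed the threshold under 7 alternatives, with an adjusted p of 0.00483 to 0.124 over all 23.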

How the results depend on the processing

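No value of the 6 genes that passed, under the reported fit or an alternative, changed sign. Of 1104 alternative values for the 48 gene and comparison pairs, 1054 kept their side of the threshold, 48 lost and 2 gained it, and 27 values that did not pass changed sign. The counts of probe sets and of members that passed moved as follows. Knockout against wild-type CD80hi mTEC gave 284 probe sets, but 180 with the smaller constant, 157 without array 1 of both knockout groups and 81 to 307 without 1 array, and 2 members, but 1 under quantile normalisation, the smaller constant, only the groups compared and without array 1 of both knockout groups, and 0 to 2 without 1 array. In CD80lo mTEC 30 became 18 with the smaller and 47 with the larger constant, 16 with only the groups compared, 51 with the replicate block and 8 to 33 without 1 array, with 0 members throughout. The stage comparison gave 1186 in wild-type mice, but 2456 with only the groups compared and 626 to 1324 without 1 array (2 to 3 members), and 1193 in knockout mice, but 629 with only the groups compared, 532 without array 1 of both knockout groups and 744 to 1353 without 1 array (2 members, but 1 in both those fits and 1 to 3 without 1 array). The interaction gave 121, but 44 with the smaller and 216 with the larger constant, 77 with only the groups compared, 44 without array 1 of both knockout groups and 34 to 134 without 1 array. Its 1 member became 0 under quantile normalisation, the smaller constant, only the groups compared and without array 1 of both knockout groups, and 0 to 1 without 1 array. Unfractionated mTEC gave 860 to 1577 probe sets against cTEC (3 to 5 members), 1554 to 2430 against tDC (2 to 3) and 1408 to 2105 against tMPh (1 to 3) without 1 array, and 1360 in place of 2048 against tMPh with only the groups compared. Quantile normalisation moved the median of all probe sets against tDC from 0.10 to -0.14 and the split against tDC to 1262 higher and 898 lower, from 1562 and 706. It moved the median by about 0.11 against cTEC, to -0.14, and against tMPh, to -0.11, and in knockout against wild-type CD80hi mTEC from -0.05 to 0.06. Same-numbered samples deviated together with r of 0.027 to 0.526 across probe sets, the labels do not say that a number marks a shared batch, and the replicate block gave 360 and 51 probe sets for genotype in CD80hi and CD80lo mTEC and changed no count of members by over 1.5 times. The causes of these shifts were not tested. Fits to only the groups compared or with an array left out also have fewer samples, and the part of this was not tested either. Signals near the dim end limit Rhd, Epb42 and Alas2, whose low groups lie under 17.3 except for 17.9 of Alas2 on array 1 of knockout CD80lo mTEC. They also limit Slc4a1, which ran from 2.0 to 31.5 over all arrays.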

Other observations

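Of 10 other tested Krüppel-like factors, none rose and 2 fell with CD80 stage in wild-type mice, Klf2 (-1.38 ± 0.29, adjusted p = 0.00562, but 0.0833 without CD80hi array 2 and 0.0854 without CD80lo array 1) and Klf7 (-1.27 ± 0.39, adjusted p = 0.0457, lost under 15 alternatives), with a median of -0.73 beside -0.04 over all tested probe sets. Klf5 was higher in unfractionated mTEC than in tDC (1.79 ± 0.37) and tMPh (2.36 ± 0.37). Of 3 other tested bicarbonate transporters of the Slc4 family, none changed with stage in wild-type mice or with genotype in CD80hi cells, and Slc4a3 was higher in mTEC than in tDC (2.95 ± 0.50) and tMPh (1.86 ± 0.50), the last not without mTEC array 1 (adjusted p = 0.0915) or tMPh array 2 (0.145). Tgm2, the 1 other tested gene of the transglutaminase family, was higher in mTEC than in tDC (1.54 ± 0.32).

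The highest signal on the cTEC, tDC, tMPh and unfractionated mTEC arrays was 2518 to 3524 on arrays numbered 1 and 4788 to 5630.0 on those numbered 2. On the CD80-sorted arrays it was 8598 to 13671. Epb42 was lower on array 1 than on array 2 in every group except cTEC.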
